A study of Homo sapiens with 6 samples.

Results

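SCAMP3, CHCHD10 and ABR were followed through every row that the deposited expression files list under these names, 7 rows in all, together with 4 rows of their relatives SCAMP1, SCAMP2, SCAMP4 and CHCHD2, out of 38648 rows and 34644 gene names in the series. SCAMP3 and CHCHD10 each had a row on the chromosome and a second row on an alternate scaffold. That name is used here for every piece of the human assembly outside the assembled chromosomes. Such a piece can carry another version of a stretch of a chromosome, and kinds of pieces were not separated here. ABR had a row on chromosome 17 and rows on 2 alternate scaffolds. The names were selected on the same contrast that is described here, because copies of them were higher in IR+PR-LV, so their differences between the groups are given as a description without a test. The 4 relatives were not selected on their values and were tested.

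The libraries were bulk RNA-seq from HK-2, an immortalised line of human kidney proximal tubule cells. IR+NC-LV cells carried a negative control lentivirus and IR+PR-LV cells carried a lentivirus that overexpresses PRDM16, a zinc finger transcriptional regulator of the PRDM family. Cells of both groups were transduced, irradiated once with X-rays at 8 Gy and collected at day 7, and there were 3 libraries in each group. The study's methods describe puromycin selection of the transduced cells, the labels do not say that the 3 libraries of a group came from separate transductions, and no library of cells without irradiation was analysed here. Total counts ranged from 13407074 to 28540041 per library. PRDM16 itself had 2, 0 and 1 counts in IR+NC-LV and 14, 10 and 8 counts in IR+PR-LV. Among proximal tubule markers, CUBN, AQP1, GGT1 and PAX8 reached 1 CPM, whereas LRP2, SLC34A1, SLC5A2, ANPEP and VIL1 did not, and 4 of 5 epithelial markers did. Of 5 loop, distal and podocyte markers only NPHS1 reached a mean of 1 CPM. The summed CPM of these markers was 1.95 to 2.16 in IR+NC-LV and 0.834 to 0.930 in IR+PR-LV, and its part in the results below was not tested.

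The 3 genes act in separate compartments. SCAMP3 is a secretory carrier membrane protein of post-Golgi and endosomal membranes. It is ubiquitylated, binds the sorting machinery of multivesicular endosomes and takes part in the sorting of the EGF receptor, while SCAMP1, SCAMP2 and SCAMP4 are family members that recycle through the cell surface. CHCHD10 is a small protein of the mitochondrial intermembrane space that is linked to the cristae junctions and is mutated in inherited motor neuron disease, and CHCHD2 is its closest relative. ABR is a relative of BCR that carries a guanine nucleotide exchange domain for small GTPases and a GTPase activating domain that turns off Rac.

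On hg38, the SCAMP3 row on chromosome 1 covered chr1:155255981-155262360 on the minus strand with 9 merged exons and 1545 exon bases. Its scaffold row, called SCAMP3-2 in the files, had the same 9 exons at the same offsets. CHCHD10 lay on the minus strand at chr22:23765834-23767972 with 4 merged exons and 721 exon bases, and CHCHD10-2 on its scaffold matched it exon for exon. The ABR copies were not alike in annotation. ABR at chr17:1003519-1229722, minus strand, had 36 merged exons and 12954 exon bases. ABR-2 had 29 merged exons and 6692 bases, of which 25 exons had a length also found in the chromosome copy. ABR-3 had 34 merged exons and 5647 bases, and 22 of these exons had a length found in the chromosome copy. How reads that fit several copies equally well were counted is not given in the sources used here, so the rows of one name are uncertain as separate measurements.

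The sequence just before the annotated start of each gene is shown because copies of these genes were higher in IR+PR-LV. For ABR this held for some copies only, and its summed counts overlapped between the groups. The sequence belongs to the chromosome rows, where SCAMP3 held 5 counts and CHCHD10 held 0, and not to the scaffold copies. Its part in the counts was not tested. RefSeq promoters (GRCh38.p14) matched all 7 genes, and the 250 bases before the start that the files use are printed for the 3 selected genes. They span chr1:155262361-155262610 for SCAMP3, chr22:23767973-23768222 for CHCHD10 and chr17:1229723-1229972 for ABR, all on the minus strand, with GC boxes (GGGCGG on either strand) in capitals.
SCAMP3: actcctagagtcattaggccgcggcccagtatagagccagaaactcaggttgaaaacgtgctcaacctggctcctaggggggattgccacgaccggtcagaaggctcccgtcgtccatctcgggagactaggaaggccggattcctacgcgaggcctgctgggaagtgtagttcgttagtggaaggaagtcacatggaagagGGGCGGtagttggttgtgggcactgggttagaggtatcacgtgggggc
CHCHD10: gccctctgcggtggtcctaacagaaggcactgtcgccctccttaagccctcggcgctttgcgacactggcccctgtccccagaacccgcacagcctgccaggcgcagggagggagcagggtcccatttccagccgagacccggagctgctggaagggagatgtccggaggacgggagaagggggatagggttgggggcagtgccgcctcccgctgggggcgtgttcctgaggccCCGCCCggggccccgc
ABR: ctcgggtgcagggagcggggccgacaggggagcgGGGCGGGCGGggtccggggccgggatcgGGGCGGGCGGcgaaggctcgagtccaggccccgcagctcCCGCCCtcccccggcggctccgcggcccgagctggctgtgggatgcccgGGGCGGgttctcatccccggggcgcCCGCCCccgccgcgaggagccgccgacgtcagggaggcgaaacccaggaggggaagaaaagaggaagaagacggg
SCAMP3 held 1 GC box, 48 bases before the start, CHCHD10 held 1 that begins 16 bases before the start, and ABR held 7 matches, of which 4 share bases with a neighbouring match. A GC box was present in 42.5% of all 34943 promoter windows of the same length. SCAMP3 also held the palindromic E-box CACGTG, 11 bases before its start, which occurred in 6.32% of windows. Neither a CCAAT box (CCAAT on either strand, in 32.0% of windows) nor a TATA box (TATAAA on either strand, in 10.8%) was found in these windows of the 3 genes. The share of G and C was 58.0% in SCAMP3, 70.4% in CHCHD10 and 78.4% in ABR, beside a median of 58.0% over all windows. ABR has 6 annotated start windows in RefSeq, and the one printed is the farthest upstream.

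SCAMP3 was counted almost entirely on the scaffold. The chromosome 1 row held 0, 1 and 1 counts in IR+NC-LV and 0, 0 and 3 in IR+PR-LV, 5 of 1103 counts of the name. SCAMP3-2 held 43, 51 and 39 counts in IR+NC-LV and 277, 466 and 222 in IR+PR-LV. As CPM, which are counts scaled to a common library total with TMM factors, these were 2.56, 2.42 and 2.81 against 16.5, 16.7 and 12.1, so the lowest IR+PR-LV library lay well above the highest IR+NC-LV library and the groups did not overlap. The means were 2.60 ± 0.195 and 15.1 ± 2.61 CPM (SD, n = 3), a log2 difference of 2.54 (SE 0.17). The ratio of the pooled counts per total was 5.94, with an exact binomial 95% interval of 4.95 to 7.18 that covers counting error only. Leaving out any 1 library kept the log2 difference between 2.46 and 2.68. In bulk libraries such as these, fewer cells of a type and less RNA per cell cannot be told apart.

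CHCHD10 showed the same division. The chromosome 22 row was listed at 0 in all 6 libraries, which allows up to 0.0260 CPM when 3 counts are set against all 115430886 counts of the series. CHCHD10-2 held 11, 12 and 3 counts in IR+NC-LV and 49, 75 and 49 in IR+PR-LV. As CPM the values were 0.656, 0.570 and 0.216 in IR+NC-LV, where library 3 stood lowest, and 2.92, 2.68 and 2.66 in IR+PR-LV, where the libraries lay close together. The means were 0.480 ± 0.233 and 2.75 ± 0.142 CPM (SD, n = 3), with no overlap and a log2 difference of 2.45 (SE 0.29). The pooled count ratio was 5.45, with a counting interval of 3.60 to 8.58 that is wider than that of SCAMP3-2 because the row held 199 counts in all. Without IR+NC-LV library 3 the log2 difference was 2.16, the lowest value when 1 library was left out, and the highest was 2.69.

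**Figure D1:**
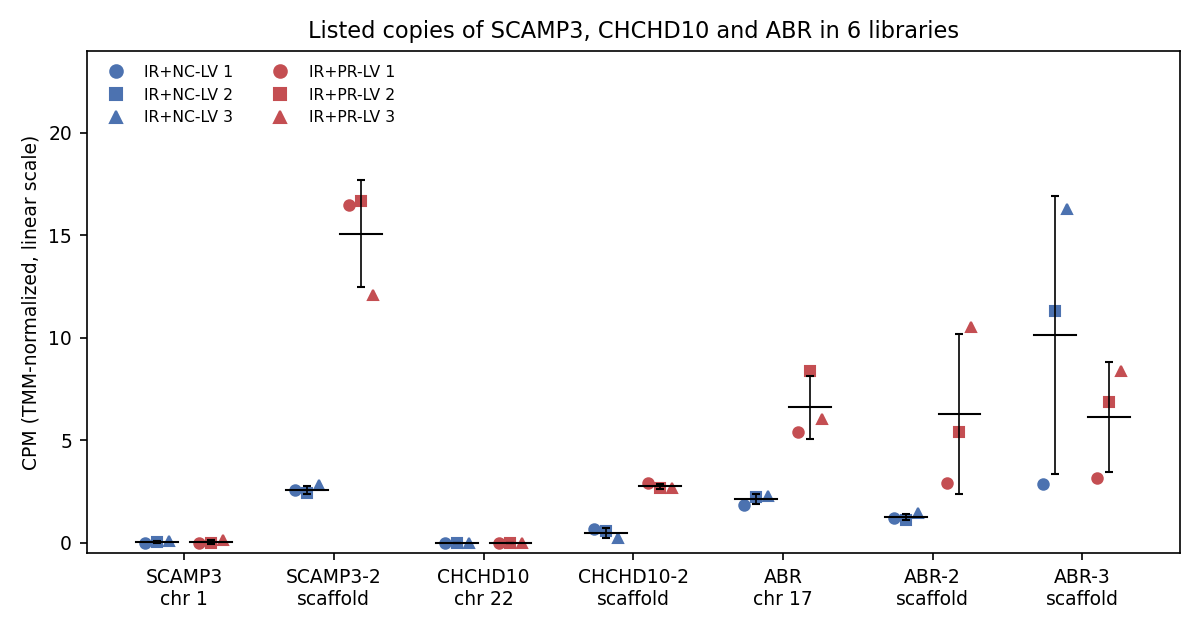
Each point is the TMM-normalized CPM (vertical axis, linear) of 1 library for each of the 7 rows listed under SCAMP3, CHCHD10 and ABR (horizontal axis), blue for IR+NC-LV and red for IR+PR-LV, with black bars for the mean and whiskers for the SD (n = 3). The 3 red points of SCAMP3-2 lie between 12.1 and 16.7 CPM above blue points near 2.60, the chromosome rows of SCAMP3 and CHCHD10 sit at or near 0, and the blue and red points of ABR-3 overlap.

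The 3 copies of ABR did not move together. The chromosome 17 row held 31, 47 and 32 counts in IR+NC-LV and 91, 234 and 111 in IR+PR-LV, or 1.85, 2.23 and 2.30 against 5.42, 8.37 and 6.03 CPM. Its groups did not overlap, and the means of 2.13 ± 0.245 and 6.61 ± 1.56 CPM gave a log2 difference of 1.64 (SE 0.21). ABR-2 held 20, 24 and 20 counts against 49, 151 and 194, and its CPM of 1.19, 1.14 and 1.44 against 2.92, 5.40 and 10.5 also did not overlap. The 3 IR+PR-LV libraries of ABR-2 were spread over a wide range, with library 3 highest, for a mean of 6.29 ± 3.89 beside 1.26 ± 0.160 CPM and a log2 difference of 2.33 (SE 0.43). This difference was 1.76 without IR+PR-LV library 3.

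ABR-3 went the other way on average and overlapped. It held 48, 238 and 226 counts in IR+NC-LV and 53, 192 and 154 in IR+PR-LV, which is 2.86, 11.3 and 16.3 against 3.16, 6.87 and 8.37 CPM. Library 1 was the lowest in each group. The means were 10.1 ± 6.78 and 6.13 ± 2.68 CPM (SD, n = 3), with a log2 difference of -0.71 (SE 0.52). That value depended on single libraries, at -1.16 without IR+NC-LV library 1, -0.22 without IR+NC-LV library 3 and -0.41 without IR+PR-LV library 1. In pooled counts the ratio was 3.25 (2.63 to 4.04) for ABR, 5.04 (3.86 to 6.67) for ABR-2 and 0.638 (0.559 to 0.729) for ABR-3. These exact binomial 95% intervals cover counting error only. They leave out the spread between libraries, over which the groups of ABR-3 overlapped.

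The division of ABR counts among its copies differed from library to library. In IR+NC-LV, ABR-3 held 48.5%, 77.0% and 81.3% of the ABR counts, and in IR+PR-LV it held 27.5%, 33.3% and 33.6%. The chromosome row held 31.3%, 15.2% and 11.5% against 47.2%, 40.6% and 24.2%. ABR-2 held 20.2%, 7.77% and 7.19% against 25.4%, 26.2% and 42.3%, so in IR+PR-LV library 3 it was the largest part. Wilson 95% intervals on these shares, for example 38.9% to 58.2% for ABR-3 in IR+NC-LV library 1 with 99 ABR counts, cover counting error only.

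**Figure D2:**
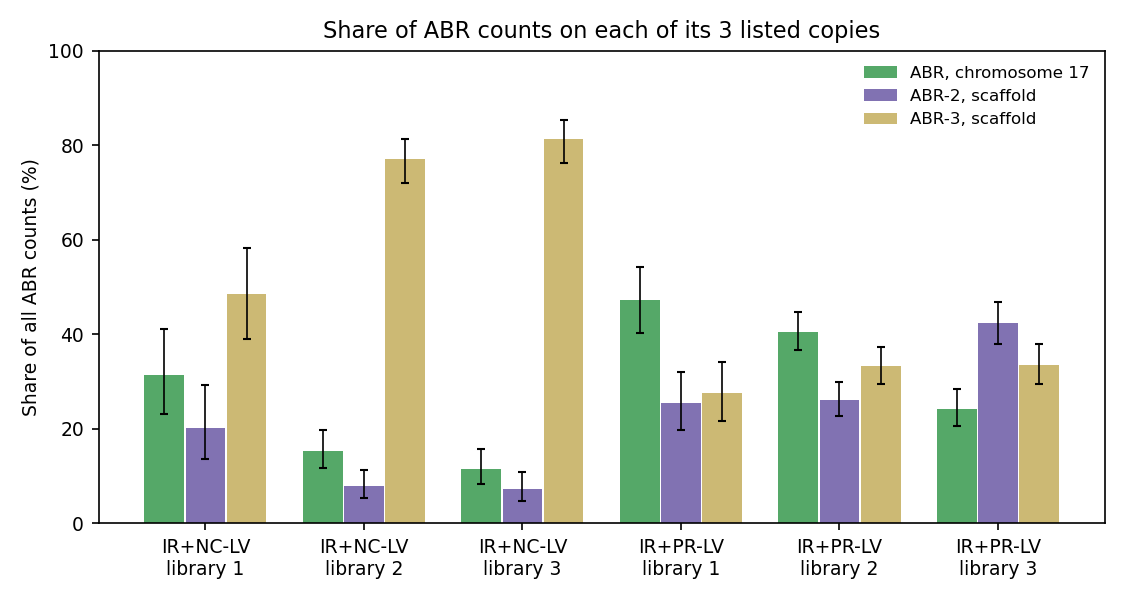
Bars give the share of all ABR counts of a library (vertical axis, percent) on the chromosome 17 row and the 2 scaffold rows, for each of the 6 libraries (horizontal axis), with Wilson 95% intervals as whiskers. ABR-3 is the tallest bar in all 3 IR+NC-LV libraries, at 48.5% to 81.3%, and in none of the IR+PR-LV libraries.

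The rows of each name were also summed. Reads that fit several copies may be missing from such a sum, since their handling is not known. Summed SCAMP3 was 2.56, 2.47 and 2.88 CPM against 16.5, 16.7 and 12.2, and its log2 difference of 2.53 (SE 0.17) was almost that of SCAMP3-2 alone. Summed CHCHD10 equalled CHCHD10-2, since the other row held no count. Summed ABR was different from its chromosome row. It was 5.90, 14.7 and 20.01 CPM in IR+NC-LV and 11.5, 20.6 and 24.95 in IR+PR-LV, so the groups overlapped, the means were 13.5 ± 7.12 and 19.0 ± 6.87 CPM, and the log2 difference was 0.51 (SE 0.38). The groups were thus separate for the chromosome row and ABR-2 and overlapped in the sum of the 3 copies, in which 47.6% of the counts belonged to ABR-3.

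Of the 15340 rows tested across the series with edgeR, 10 (0.0652%) passed an adjusted p of 0.05, and SCAMP3-2, CHCHD10-2 and ABR are 3 of them, which is how the names were selected. They were the 3 rows called higher, and the other 7 were lower. This split turned to 6 higher and 1 lower without IR+PR-LV library 1 and to 7 higher and 0 lower without IR+PR-LV library 2. Without IR+NC-LV library 1 or IR+PR-LV library 3 the 1 row called was higher. More rows were lower with DESeq2 (58 higher, 108 lower), without a filter (135 and 207) and with chromosome rows alone (5 and 32). The same held without IR+NC-LV library 2 (6 and 22) or library 3 (3 and 13). SCAMP3-2, CHCHD10-2 and ABR all passed with RLE factors, with DESeq2 and without a filter. ABR also passed with chromosome rows alone (edgeR adjusted p = 0.0141). These refits reuse the libraries on which the rows were selected, so they describe the selection and do not test it. SCAMP3-2 stayed past the threshold when any 1 library was left out and with the replicate block. ABR did not pass in any of the 6 fits without 1 library (edgeR adjusted p = 0.0518 to 0.168), with the replicate block (0.0639) or with its copies summed (0.684). CHCHD10-2 passed in 2 of the 6 fits and not in the other 4 (0.0596 to 0.121), nor with the block (0.0783). Just inside the threshold lay ABR with ANO2, both at an adjusted p of 0.0372 in edgeR's quasi-likelihood test, and just outside it lay PER1 at 0.0582 and TBCE-2, LENG8 and ZNF707 at 0.0688. SCAMP3-2, CHCHD10-2, ABR and ABR-2 are 4 rows with every IR+PR-LV library above every IR+NC-LV library, a pattern found in 7.46% of the rows tested. Nothing is read from these counts for rows selected on the same contrast.

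The relatives of SCAMP3 did not pass the test. SCAMP1 was 119, 130 and 117 CPM in IR+NC-LV and 119, 148 and 153 in IR+PR-LV, and the groups overlapped because IR+PR-LV library 1 lay with the control libraries. Its log2 difference was 0.20 (SE 0.10, adjusted p = 0.511). SCAMP2 was 33.0, 30.8 and 31.2 CPM against 30.2, 32.8 and 30.7, which gave a log2 difference of -0.02 (SE 0.08, adjusted p = 0.953). SCAMP4 was 52.0, 58.2 and 47.9 CPM against 52.7, 51.3 and 42.8, at -0.11 (SE 0.10, adjusted p = 0.754). All 3 overlapped between the groups, and each name is listed once, on its chromosome.

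CHCHD2 behaved like these. Its CPM of 207, 217 and 191 in IR+NC-LV and 230, 210 and 197 in IR+PR-LV overlapped, with means of 205 ± 13.1 and 212 ± 16.9 (SD, n = 3) and a log2 difference of 0.05 (SE 0.08, adjusted p = 0.840). Over the whole series 10.5% of the rows tested had an unadjusted p under 0.05, and none of the 4 relatives did. DESeq2 called none of the 4 either.

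Per length, SCAMP3-2 and CHCHD10-2 had lower values than the relatives followed here, each of which is listed once. Reads that fit several copies may be uncounted in the rows of SCAMP3, CHCHD10 and ABR, so these are values of rows and not of genes. On the TPM scale, which divides counts by exon length, the IR+NC-LV means were 69.5 ± 4.14 for SCAMP4, 64.8 ± 2.33 for SCAMP1, 39.0 ± 2.09 for SCAMP2 and 5.58 ± 0.682 for SCAMP3-2 (SD, n = 3). The lowest SCAMP4 library and the highest SCAMP1 library met at 66.7 TPM, and the other steps of this order were wider than the spread between libraries. In IR+PR-LV the order was SCAMP1 at 72.3 ± 9.80, SCAMP4 at 63.0 ± 6.29, SCAMP2 at 37.4 ± 1.38 and SCAMP3-2 at 31.4 ± 5.12 TPM. SCAMP1 and SCAMP4 overlapped there, with SCAMP4 above SCAMP1 in library 1. SCAMP3-2 remained the lowest of these 4 rows in each IR+PR-LV library, at 34.3, 34.4 and 25.5 TPM beside a lowest SCAMP2 value of 36.2. SCAMP5, which is not among these rows, was 12.5 ± 1.08 and 12.0 ± 0.673 CPM. CHCHD2 was at 844 ± 17.5 and 854 ± 63.5 TPM in the 2 groups, and the row CHCHD10-2, whose chromosome copy with the same exons was at 0, was at 2.17 ± 1.003 and 12.3 ± 0.618. The ABR rows were at 0.545 ± 0.0780 (ABR), 0.624 ± 0.110 (ABR-2) and 6.03 ± 4.21 TPM (ABR-3) in IR+NC-LV, and at 1.64 ± 0.372, 3.04 ± 1.91 and 3.499 ± 1.55 TPM in IR+PR-LV, where the 3 rows overlapped.

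**Figure D3:**
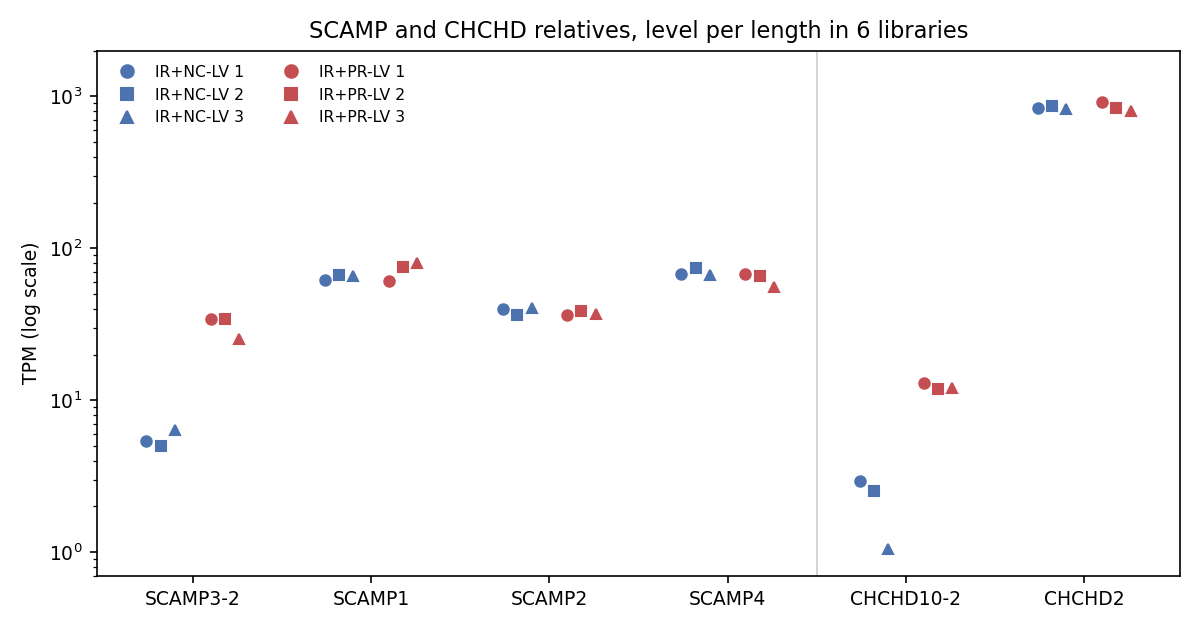
Each point is the deposited TPM of 1 library (vertical axis, log scale) for SCAMP3-2, SCAMP1, SCAMP2 and SCAMP4 to the left of the grey line and for CHCHD10-2 and CHCHD2 to its right, blue for IR+NC-LV and red for IR+PR-LV. SCAMP3-2 lies near 5.58 TPM in blue and near 31.4 in red, just under SCAMP2, and CHCHD2 lies at means of 844 and 854 TPM.

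Outside the alternate scaffolds the transcripts of these genes were largely unlike others. Of 1438 stretches of 100 bases in the longest GENCODE v29 protein-coding transcript of SCAMP3, 0 occurred in a transcript of another gene on either strand. The CHCHD10 transcript compared has 1171 bases, beside 721 exon bases of its row in the files, and the share within those 721 bases was not measured. Over the whole transcript the share was 11.1% for CHCHD10, in MMP11 transcripts, and 0.837% for ABR, in TIMM22 transcripts. For CHCHD2 it was 4.11%, in CHCHD2P9, and it was 0 for SCAMP1, SCAMP2 and SCAMP4. In the files, the exons of CHCHD10 overlapped those of C22orf15 on the opposite strand over 30 bases (4.16%), those of ABR overlapped TIMM22 and other genes over 176 bases, and those of SCAMP3 overlapped none. The reference used here holds no alternate scaffolds, so the letters of the copies themselves were not compared.

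The neighbours of the 3 genes on their scaffolds give a view of the same pieces of sequence. The 4 scaffolds held 37 other rows, of which 25 had any count and 10 were tested. Of these 10 none was called by edgeR or by DESeq2, and none had an unadjusted p under 0.05 in edgeR. In log2 difference 8 lay above and 2 below 0, and the lowest adjusted p in edgeR was 0.482. Over the series edgeR called 0.0652% of the rows tested, and 21.0% of the 542 scaffold rows tested had an unadjusted p under 0.05. With 10 rows, the absence of calls is not read as a result about the neighbours. Rows with the most counts are described here. On the SCAMP3 scaffold, CLK2-2, a splicing kinase gene, was 5.13, 4.46 and 2.16 CPM in IR+NC-LV and 2.26, 10.6 and 14.5 in IR+PR-LV. FAM189B-2 was 3.88, 3.61 and 4.97 against 3.28, 7.33 and 10.7 CPM. IR+PR-LV library 1 was the lowest of its group in both of these neighbours, while in SCAMP3-2 it lay with the highest. MTX1-2, a low row of the same scaffold with 48 counts in all, was not tested. It was 0.417, 0.190 and 0.360 CPM in IR+NC-LV and 0.476, 0.536 and 0.489 in IR+PR-LV, so its groups did not overlap either.

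On the CHCHD10 scaffold, SMARCB1-2, which encodes a subunit of the SWI/SNF remodelling complex, was 28.9, 16.3 and 3.81 CPM in IR+NC-LV and 39.6, 15.5 and 16.5 in IR+PR-LV. DDT-2, the D-dopachrome tautomerase gene related to MIF, was 1.67, 1.85 and 9.72 against 16.6, 2.07 and 2.83 CPM. Within IR+NC-LV the highest library exceeded the lowest by 7.58-fold for SMARCB1-2 and 5.82-fold for DDT-2, and the groups overlapped for both. On the scaffold of ABR-2, YWHAE-2, a 14-3-3 adaptor gene, was 8.23, 7.55 and 9.43 against 9.95, 11.8 and 8.97 CPM and stayed within a narrow range. The chromosome rows of these names held few counts for SMARCB1 (1 in all), FAM189B (1) and DDT (2). The chromosome row of CLK2 held 53, of which 48 lay in IR+NC-LV library 2. That of YWHAE held most of the counts of the name (9673, beside 1090 on the scaffold).

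**Figure D4:**
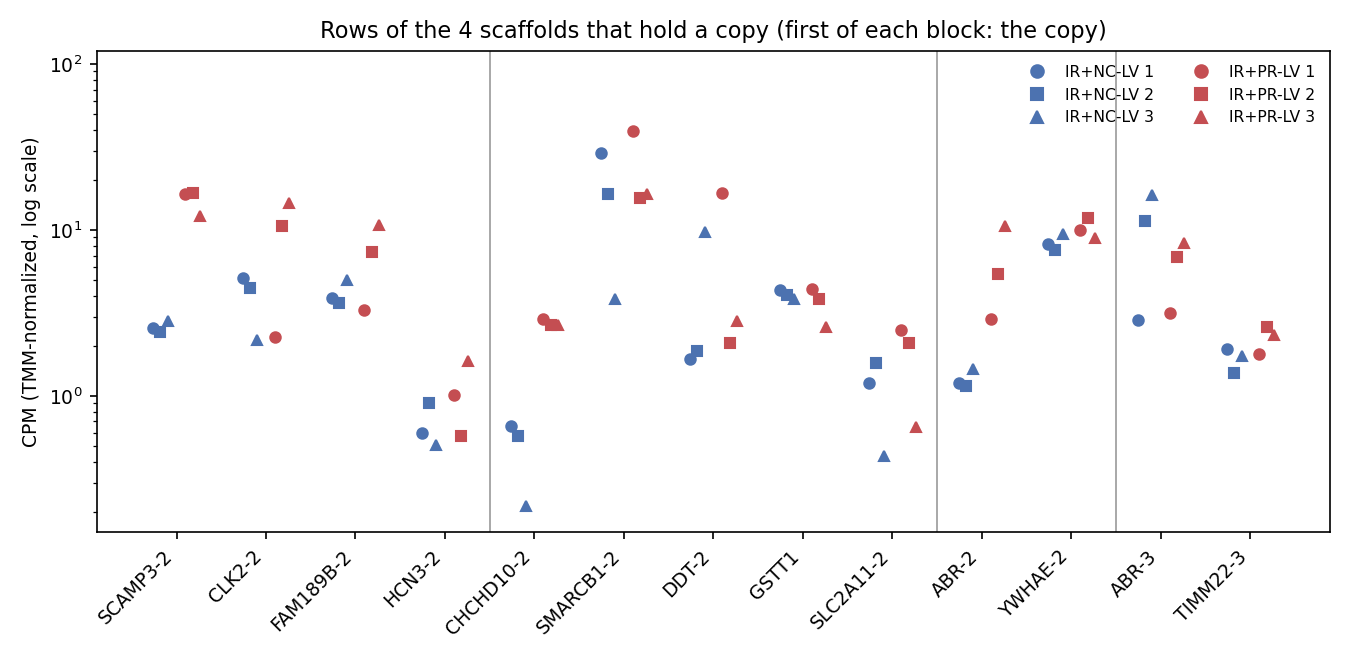
Each point is the TMM-normalized CPM of 1 library (vertical axis, log scale) for tested rows of the 4 alternate scaffolds, with grey lines between scaffolds and the SCAMP3, CHCHD10 or ABR copy first in each block. SCAMP3-2 and CHCHD10-2 separate blue (IR+NC-LV) from red (IR+PR-LV) completely, whereas CLK2-2, SMARCB1-2 and DDT-2 mix the colours over a wide range.

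Rows with several copies varied more between replicate libraries than rows listed once. Among rows at 1 to 20 CPM, the median SD of log2 CPM between libraries of a group was 0.181 for the 5217 chromosome rows whose name is listed once, 0.464 for the 301 chromosome rows with a further copy and 0.492 for the 400 scaffold rows. Values over 0.5 were found in 1.63% of the first class and in 49.0% of the scaffold rows. SCAMP3-2 was at 0.203 and the chromosome row of ABR at 0.252, which is more than 77.2% and 76.6% of the rows listed once at a like CPM. CHCHD10-2 was at 0.418, ABR-2 at 0.654 and ABR-3 at 1.05. The part of this spread in the group differences was not tested.

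Summing copies did not bring such names to the level of the others. For 454 names at 1 to 20 CPM with rows on both a chromosome and a scaffold, the median SD of the summed log2 CPM was 0.469, against 0.181 for 5226 names listed once. It was 0.560 for the 155 names with over 90% of their CPM on scaffolds, the class to which SCAMP3 (99.5%) and CHCHD10 (100%) belong. Summed SCAMP3 was at 0.195 in this measure, CHCHD10 at 0.485 and ABR, with 73.2% of its CPM on scaffolds, at 0.761. Such a division of counts was common, since 204 of 607 names with at least 100 counts and rows in both places (33.6%) had over 90% of them on scaffolds. Among the 542 scaffold rows tested, 21.0% had an unadjusted p under 0.05 in edgeR, beside 10.1% of the 14798 chromosome rows.

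The other genes of the endosomal sorting pathway around SCAMP3 showed no call. Of 30 listed genes all were tested, 0 passed in either direction with edgeR or DESeq2, and 2 had an unadjusted p under 0.05 in edgeR, both lower in IR+PR-LV. Over all rows tested, edgeR called 0.0652%, and 10.5% had an unadjusted p under 0.05. The absence of calls in a list of this size is therefore not read as a result about the pathway. The median log2 difference was 0.01 (17 above and 13 below 0), beside 0.0044 over all rows tested. The 2 lowest were VAMP2, a vesicle fusion protein, at -0.32 (SE 0.09, adjusted p = 0.294), and NEDD4L, a ubiquitin ligase, at -0.24 (SE 0.06, adjusted p = 0.210). The highest were VPS28, which entered by its scaffold row, at 0.23 and RAB11A at 0.18. EGFR, the receptor whose sorting SCAMP3 takes part in, was 218 ± 3.95 and 223 ± 2.10 CPM.

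The mitochondrial partners of CHCHD10, which build the cristae junction and the intermembrane space import route, had mostly small log2 differences. Of 33 names 31 were listed and 30 tested. None was called by edgeR (0.0652% over all rows tested), and 3 had an unadjusted p under 0.05 (10.5% over all rows tested). Nothing is read from these counts. The median log2 difference was 0.05 (23 above and 7 below 0), beside 0.0044 over all rows tested (7839 above and 7501 below 0). No set test was run. C1QBP, a mitochondrial matrix protein, was highest at 0.24 (SE 0.06, adjusted p = 0.210 in edgeR and 0.0269 in DESeq2), with 160 ± 2.82 and 189 ± 5.15 CPM. OPA1, the fusion protein of the inner membrane, followed at 0.19 (adjusted p = 0.327). MTX1 was lowest at -0.37 (SE 0.11, adjusted p = 0.326) and COX17 next at -0.13. MTX1 has a second row on the SCAMP3 scaffold, MTX1-2, with 48 counts beside 1539 on chromosome 1. MTX1-2 was higher in IR+PR-LV without overlap, at 4 to 15 counts per library, while the chromosome row was lower. Nothing is read from a row this close to the floor.

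The small GTPase genes around ABR were likewise not called. Of 32 names 31 were tested, and 0 passed with edgeR or DESeq2 (0.0652% over all rows tested with edgeR). An unadjusted p under 0.05 in edgeR was found for 1 (10.5% over all rows tested). Nothing is read from these counts. The median log2 difference was 0.03 (20 above and 11 below 0). BCR, the closest relative of ABR, was 27.5 ± 1.69 and 29.9 ± 4.52 CPM, a log2 difference of 0.12 (SE 0.11, adjusted p = 0.745). RAC1, the main substrate of the ABR activating domain, was 365 ± 27.3 and 378 ± 12.1 CPM. PREX1, an exchange factor for Rac, was lowest at -1.11 (SE 0.32, adjusted p = 0.300), at 0.728 ± 0.0760 and 0.341 ± 0.0492 CPM, and ARHGDIB followed at -0.39. ARHGAP17, a name with 2 rows, was highest at 0.22 (SE 0.32, adjusted p = 0.844 in edgeR), and its groups overlapped. RHOQ was next at 0.18.

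By likeness over the 6 libraries, as Pearson r of log2 CPM with 13975 other rows of at least 1 CPM, the rows nearest to SCAMP3-2 were UBE3C, a ubiquitin ligase (r = 0.989), P3H2, a collagen prolyl hydroxylase (0.988), and SYAP1 (0.987). Nearest to CHCHD10-2 were TTC3 (0.998), OAZ1, the ornithine decarboxylase antizyme (0.994), and GATA2-AS1 (0.993). For ABR-3, the ABR row with the most counts, they were CPNE8-AS1 (0.979), LOC107987097 (0.977) and RBM24 (0.976). After the group means were removed, r with SCAMP3-2 was 0.835 for UBE3C, 0.0361 for P3H2 and 0.476 for SYAP1, so P3H2 did not follow its order of libraries within the groups. With CHCHD10-2 it was 0.936 (OAZ1) to 0.994 (TTC3), and with ABR-3 it was 0.975 to 0.985. UBE3C differed by 0.14 on the log2 scale, beside 2.54 for SCAMP3-2, and TTC3 by 0.15, beside 2.45 for CHCHD10-2. The 6 points share 2 groups, and with so many rows compared a high r is a description only.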

How the data were processed

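Bulk RNA-seq was analysed for 3 IR+NC-LV and 3 IR+PR-LV libraries of HK-2 cells, grouped by the sample labels. Per the study's methods, mRNA was captured with oligo(dT), primed with random hexamers and sequenced in pairs on a DNBseq T7, and low-quality and adapter reads were removed. For each library the authors deposited raw read counts per gene, TPM and FPKM. The deposited TPM and FPKM follow from the counts and the exon length, and FPKM was not used further. The submitters' processing notes name hg38, featureCounts 2.0.1 and DESeq2 1.16.1. The aligner, the strand setting and the handling of multiply mapped reads are not given in the sources used here. Without strand, reads of overlapping genes cannot be told apart.

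Counts were fitted with edgeR 4.0.16 in R 4.3.3, using filterByExpr (minimum count 10, minimum total 15), TMM factors (0.981 to 1.04), and no covariates in the quasi-likelihood fit (glmQLFit, glmQLFTest). Benjamini-Hochberg adjustment ran over the 15340 rows tested. The p-values measure only the spread between these libraries, which may be technical. CPM were TMM-normalized, SE were taken from the fold change and the F statistic, and log2 differences are IR+PR-LV minus IR+NC-LV. Log2 CPM for likeness and spread used a prior count of 2, and the spread of summed names used log2(CPM + 0.1). Alternatives were RLE factors, DESeq2 1.42.0, no filter beyond 1 count, a replicate block, leaving out each library, summed copies and chromosome rows alone. Depth limited low rows, since 3 counts correspond to 0.105 to 0.224 CPM in 1 library.

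The members and the lists of partner genes were chosen with earlier results of these data known. Named were all rows of the 7 genes, PRDM16, the 6 scaffold neighbours with the most counts and their chromosome rows (1 of these neighbours and 1 marker are not reported here), the 2 lowest and 2 highest tested genes of each list, and the 3 rows most like the main row of each selected gene. MTX1-2, EGFR, BCR, RAC1 and the genes next to the threshold were named besides. A listed gene with several rows entered by the row with the most counts. No row lacked a gene name, and 9817 rows had no count. Figures were drawn from the same values.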

Additional observations from a re-analysis of the deposited data

How the results depend on the processing

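For the relatives the side of the threshold did not change under any alternative run. ABR and CHCHD10-2 lost their place among the rows past the threshold with the replicate block and when single libraries were left out, as given above. The 10 rows past the threshold became 166 with DESeq2, 342 without a filter, 37 with chromosome rows alone and 3 with the replicate number as a block, and ranged from 1 to 28 when 1 library was left out (1 without IR+NC-LV library 1 or IR+PR-LV library 3, 28 without IR+NC-LV library 2 and 16 without IR+NC-LV library 3). Libraries of the same number deviated from their group means with correlations of -0.0017, 0.074 and 0.093. IR+NC-LV libraries 2 and 3 correlated most with the IR+PR-LV library of the same number. IR+NC-LV library 1 correlated more with IR+PR-LV library 2 (0.067) than with library 1. Correlations this small, from 3 libraries per group, cannot settle whether the numbers are pairs. The main fit did not take them as pairs. With copies summed, the log2 differences of ABR (1.64), ABR-2 (2.33) and ABR-3 (-0.71) all became 0.51 (adjusted p = 0.684 in edgeR), by construction. With 1 library left out, the log2 difference of SCAMP4 ranged from -0.17 to -0.021 and that of SCAMP2 from -0.055 to 0.0084, above 0 without IR+NC-LV library 1 (0.0084) or IR+PR-LV library 1 (0.0073). That of CHCHD2 ranged from -0.0067 (without IR+PR-LV library 1) to 0.11, the median of the SCAMP partners from -0.013 (without IR+NC-LV library 3) to 0.031, and the median of the ABR partners from -0.017 (without IR+PR-LV library 1) to 0.055. Where no other cause is named, the cause was not tested. Chromosome rows alone gave no value for SCAMP3-2, CHCHD10-2, ABR-2 or ABR-3, and the chromosome rows of SCAMP3 and CHCHD10 were too low to be tested.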

Other observations

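MIF, a cytokine gene expressed in most cell types, lies on the CHCHD10 scaffold as well as on chromosome 22 and was listed at 0 in all 6 libraries in both places. It was named after its values were seen. The chromosome 17 row of YWHAE held 3370, 1047 and 753 counts in IR+NC-LV and 761, 2181 and 1561 in IR+PR-LV, while YWHAE-2 on the scaffold of ABR-2 held 138, 159 and 131 against 167, 330 and 165.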
